A study of Mus musculus with 4 samples.

Results

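The BCL-2 family decides whether a cell's mitochondria stay intact or release the proteins that start its breakdown. Pro-survival members such as BCL-2 and MCL-1 hold the pore-forming effectors BAX and BAK in check. BH3-only members such as BIM, BID and PUMA act on both groups. In the ovary the family is known for its part in the loss of germ cells and in the survival of oocytes. The 10 genes described here were taken by name from a list of pro-survival genes (Bcl2, Bcl2l1, Bcl2l10, Mcl1), effectors (Bok, Bax, Bak1) and BH3-only genes (Bcl2l11, Bid, Bbc3). All 10 were found among the 32808 genes with a symbol in the count table.

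By the sources used here, the RNA came from female germline stem cells of C57BL/6 mice at more than 20 passages. There were 2 control libraries and 2 libraries made after 4 h with spermidine, a polyamine studied as an inducer of autophagy. Whether the libraries hold the cells so named was not tested, and marker values are given below. No dose is stated in the sources used here. Whether the libraries of a group stem from separate cultures is not stated either, and p-values then reflect only how far these samples spread, which may be technical. The comparison asks which transcripts differ between the groups.

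Library totals were 7206176 and 7128901 counts for the controls and 787600 and 1718944 for spermidine. Of these, the ribosomal row AY036118 took 29.6% and 30.7% in the spermidine libraries against 1.68% and 1.64% in the controls. Counts on olfactory and vomeronasal receptor genes were 3.20 per kb in spermidine replicate 1, against 0.173 in spermidine replicate 2 and 0.0597 and 0.154 in the controls. Of 9 germline stem cell markers 5 were tested, with Ifitm3, Dppa3 and Pou5f1 called higher, Tex19.1 lower (1955 and 1770 control counts against 36 and 25) and Dnd1 not called. Ddx4 had 1 count and Dazl 3 over all 4 libraries, and Nanos3, which had none, can be counted on 12 bases only. Other marker lists separated the groups. The summed level of 10 oocyte markers, in CPM (counts relative to the library total, scaled by TMM), was 1.45 and 2.60 in the controls against 157.8 and 2198 with spermidine, with Nobox at 0 throughout, as were Zp2 and Nlrp5, which can be counted on only 42 and 21 bases. That of 10 granulosa and theca markers was 162 and 133.5 against 2317 and 7016, with Amhr2 at 0, as was Amh, which has no base that can be counted. That of 12 leukocyte and haematopoietic markers was 2636 and 1953 against 363.6 and 177.2, with Spi1 at 0. Of stroma, surface epithelium and endothelium markers, 4 of 7, 5 of 5 and 3 of 3 tested genes were called higher in spermidine, against 24.8% of all tested genes. All 5 tested oocyte, 5 epithelial and 3 endothelial genes, and 5 of the 7 granulosa and theca genes called higher, had too few control counts to be tested without their spermidine counts, and could only differ upwards. The same holds for the germline stem cell markers Dppa3 and Pou5f1, and for 1 of the 4 stroma genes called higher. In bulk RNA, fewer cells of a type and less RNA per cell cannot be told apart.

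What a count of a member stands for depends on which bases could be counted. The table has a row for each RefSeq transcript, and rows that share every base with another row held at most 0.0014% of a library's counts. Reads on shared bases are therefore taken as not counted, a reading of the values that no source used here states. A gene is then seen only on bases covered by a single row, called its own bases here. Bok and Bcl2l10 each had 1 row, and all of their 1559 and 1228 bases were their own. Bcl2, Mcl1 and Bak1 had 5363, 2907 and 1091 own bases, mostly in the 3′ untranslated part, with 153, 248 and 94 coding bases. Bax had 54 own bases and Bid 369, so low counts of these genes do not show low expression.

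**Figure D1:**
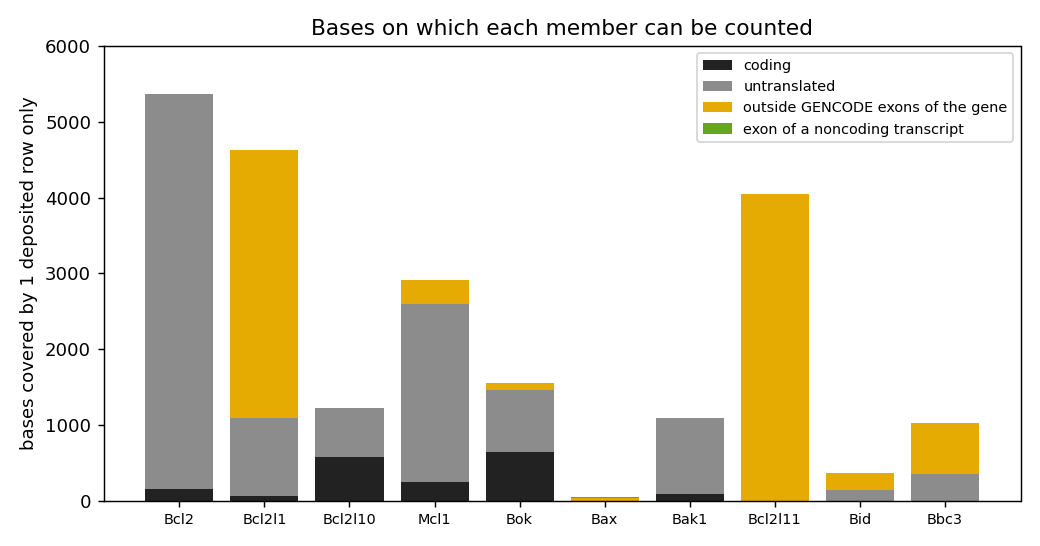
Number of bases covered by only 1 deposited transcript row, for each member, split by what GENCODE M21 annotates there (coding, untranslated, outside the gene's exons, or exon of a noncoding transcript). All 4043 own bases of Bcl2l11 lie outside the annotated exons, and Bax has only 54 own bases.

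The Bcl2l11 row that held every Bcl2l11 count, a predicted transcript, owned 4043 bases at chr2:128131499-128135541 (GRCm38, plus strand). No GENCODE M21 exon of the gene lies there, and the stretch falls inside an intron of its longer transcripts. The values of Bcl2l11 below therefore count none of the bases that encode BIM. Bcl2l1, which encodes BCL-xL, had 4623 own bases, of which 3069 belong to 1 predicted row and lie outside annotated exons.

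Bcl2 makes a pair of isoforms that the table separates. The alpha form ends in a hydrophobic tail that anchors the protein in membranes, and the beta form, read on past the end of the shared exon, lacks that tail. The own bases that tell the forms apart are mostly untranslated, with 132 coding bases for alpha and 21 for beta. Shown are these coding bases, on which each isoform alone can be counted. They come from GENCODE M21 transcripts on the minus strand of chromosome 1, at chr1:106543264-106543398 for alpha and chr1:106712281-106712304 for beta, and the stop codon is in capitals.
Bcl2 alpha: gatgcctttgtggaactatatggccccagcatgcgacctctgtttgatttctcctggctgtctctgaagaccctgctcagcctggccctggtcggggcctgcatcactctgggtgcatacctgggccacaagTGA
Bcl2 beta: gtaggtgcatgtctggttgaaTGA
The alpha row, with 5223 own bases, had 3092 and 2801 control counts against 94 and 68 with spermidine. The beta row had 11 and 9 against 3 and 0, on 140 own bases, which are also intron sequence of the alpha transcript. Per kb of own bases the alpha row had 592 and 536.3 control counts and the beta row 78.6 and 64.3. In spermidine replicate 1 the rows had 18.0 and 21.4 per kb, and in replicate 2 they had 13.0 and 0. Alpha was thus the more covered row in both controls, while the 3 and 0 beta counts do not tell which form was present in the spermidine libraries. Fitted by itself, the alpha row fell by 2.41 on the log2 scale (SE 0.59, adjusted p = 0.015, edgeR's quasi-likelihood test over all rows), close to the value of the gene.

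Across all genes, 28.8% of 7836 tested genes were called by edgeR's quasi-likelihood test (adjusted p under 0.05, Benjamini-Hochberg), with 24.8% higher and 3.99% lower in spermidine. Of the 10 members, 3 were called higher (Bcl2l10, Bok and Bcl2l11), 1 lower (Bcl2), 4 were tested without a call (Bcl2l1, Mcl1, Bak1 and Bbc3) and Bax and Bid had too few counts to be tested. In 6 of the 8 tested members both spermidine libraries lay on the same side of both controls, against 66.2% of all tested genes. With 8 tested members, these counts are read only beside the shares of the whole table. Only their spermidine counts carried the 3 higher members over the low-count filter, so they could only differ upwards, and their number is no evidence about the family.

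**Figure D2:**
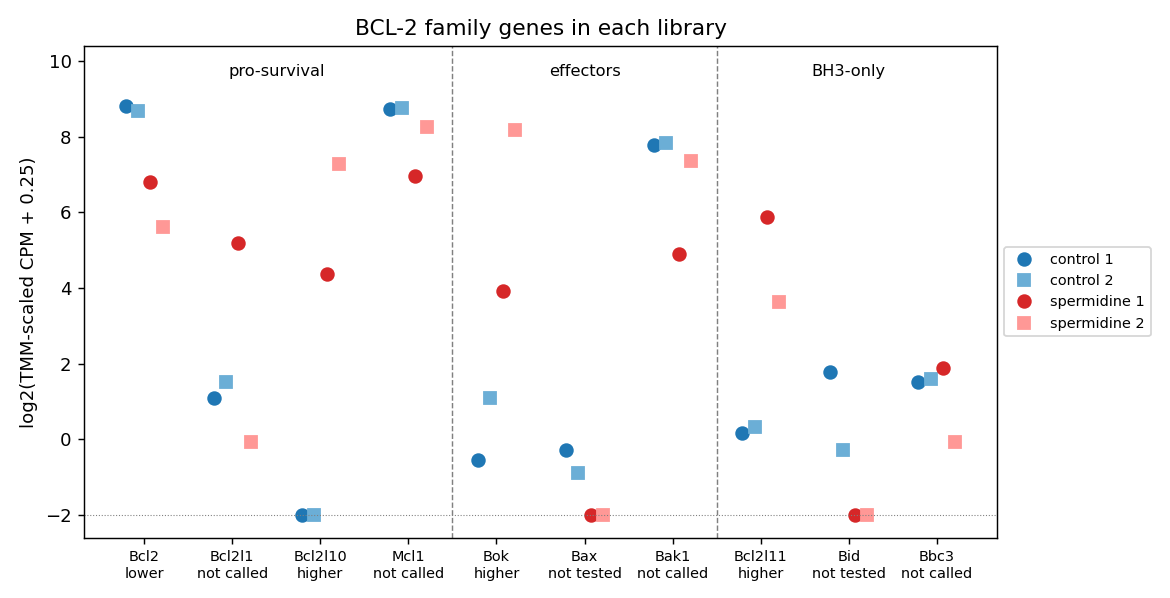
Level of each member in each library, as log2 of the TMM-scaled CPM plus 0.25, with the call of edgeR's quasi-likelihood test under each name (the dotted line marks 0 counts). Bcl2 is lower in both spermidine libraries than in both controls, Bcl2l10 has no control count, and the spermidine libraries lie far apart for Bok, Bcl2l1 and Bak1.

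Positions below are the spans of the deposited rows (GRCm38). Among pro-survival genes, Bcl2 (chr1:106538176-106714290) keeps the effectors BAX and BAK inactive at the outer mitochondrial membrane. It had 3103 and 2810 control counts against 97 and 68 with spermidine, or 449.7 and 406.6 CPM against 110.9 and 48.4. The groups did not overlap, and both spermidine libraries were low. Bcl2 fell by 2.45 on the log2 scale (SE 0.60, adjusted p = 0.0145 by edgeR), against a median of 0.23 over all tested genes. It was the only member called lower. Its counts per kb in spermidine replicate 1, 18.1, were above the receptor level of 3.20 there. With the background of each library subtracted, and the table filtered and scaled anew, the log2 fold change was -2.27. The call was lost without control replicate 1 or control replicate 2, at log2 fold changes of -2.27 and -2.51. The log2 fold change was -3.14 without spermidine replicate 1 and -1.89 without replicate 2. Such fits take the spread of the lone library from the other group. Of 12 leukocyte and haematopoietic markers 6 were tested and 5 called lower, among them Plek and Itga2b, against 3.99% of all tested genes. Spi1 had no count, and Ptprc had 0 and 0 control counts against 3 and 0. The part of leukocyte and haematopoietic RNA in the Bcl2 value was not tested.

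Mcl1 (chr3:95658410-95663179) encodes a short-lived survival protein that many cell types, oocytes and blood cells among them, depend on. It had 2935 and 3000 control counts against 109 and 428, or 425.3 and 434.1 CPM against 124.6 and 304.7. Both spermidine libraries were lower than both controls, but they differed from each other by more than the controls did, and the log2 fold change of -0.99 ± 0.58 (SE) was not called (adjusted p = 0.233, edgeR). Without spermidine replicate 2 the value was -1.72, and without replicate 1 it was -0.50.

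The ratio of Mcl1 to Bcl2 counts within a library needs no scaling between libraries. It was 0.946 and 1.07 in the controls, 1.12 in spermidine replicate 1 and 6.29 in spermidine replicate 2. Spermidine replicate 1 thus lay close to the controls in this ratio, and replicate 2 stood apart.

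Bcl2l10 (chr9:75347758-75351640) encodes a survival protein, also called DIVA or BOO in mice, that is best known from the ovary and from oocytes. No control library held a count of it, and the spermidine libraries held 18 and 217. Taking 3 counts over both controls as the floor, its level was 474.7-fold higher in the spermidine group. The exact 95% interval from counting, which takes the control counts as 0, started at 383. Against the same floor the level was 94.8-fold higher in spermidine replicate 1 alone and 711.1-fold in replicate 2 alone. The ratios to the floor allow for no error in the spermidine counts and are not lower limits. Bcl2l10 was called higher (adjusted p = 0.00635, edgeR), and the call was lost without spermidine replicate 1 or control replicate 1. On its 1228 bases the receptor level of spermidine replicate 1 comes to 3.93 counts, below the 18 seen. Of 10 listed oocyte markers 5 were tested, and all 5 were called higher, against 24.8% of all tested genes. These 5 were tested only on the strength of their spermidine counts, so they could only differ upwards. Among them, Zp3 had 2 and 3 control counts against 30 and 751, and Bmp15 had 1 and 2 against 16 and 236. Of those not tested, Gdf9 had 0 and 1 against 0 and 55, Figla 0 and 0 against 1 and 0, and Nobox none. The part of oocyte RNA in the Bcl2l10 value was not tested.

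Bcl2l1 (chr2:152758732-152834797) had 13 and 18 control counts against 32 and 1. The spermidine libraries lay on opposite sides of the controls, at 36.6 and 0.712 CPM against 1.88 and 2.60, and the gene was not called (log2 fold change 2.86 ± 1.25 SE, adjusted p = 0.125, edgeR). The value turned to -1.62 ± 0.95 without spermidine replicate 1 and was 4.08 ± 0.72 without replicate 2, so its sign rests on 1 library. Of the 32 counts in spermidine replicate 1, 20 were on the predicted row outside annotated exons, and the receptor level there comes to 14.8 counts on all the gene's own bases.

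Among the effectors, which form the pore in the outer membrane, Bak1 (chr17:27019812-27028626) was the most covered member per kb in both controls. It had 1519 and 1589 counts there against 26 and 230, or 220.1 and 229.9 CPM against 29.7 and 163.7. Both spermidine libraries were lower than both controls, and spermidine replicate 2 was far closer to them than replicate 1. The log2 fold change of -1.18 ± 0.72 (SE) was not called (adjusted p = 0.253, edgeR). It was -2.86 ± 0.56 with a call without spermidine replicate 2 (adjusted p = 0.00078) and -0.46 ± 0.25 without replicate 1.

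Bok (chr1:93685575-93695770) encodes an effector that is abundant in reproductive tissue and is known for acting with little restraint by the survival proteins. It had 3 and 13 control counts against 13 and 406, or 0.435 and 1.88 CPM against 14.9 and 289. The groups did not overlap in CPM, and spermidine replicate 2 was far above every other library. Bok rose by 7.03 on the log2 scale (SE 1.38, adjusted p = 0.00755, edgeR), by 3.73 ± 0.95 without spermidine replicate 2 and by 7.93 ± 0.40 without replicate 1. The call was lost without control replicate 1 (adjusted p = 0.075) and by limma-voom (0.0526). In spermidine replicate 1 the 13 counts stand against 4.98 at the receptor level. Of 8 tested granulosa and theca markers 7 were called higher, against 24.8% of all tested genes. Of these 7, 5 were tested only on the strength of their spermidine counts. Inhbb had 17 and 23 control counts against 135 and 5498. Unlike Bok, Star and the uncalled Cyp11a1 were higher in spermidine replicate 1 (1489 and 267.6 CPM) than in replicate 2 (315.3 and 98.23). The part of granulosa and theca RNA in the Bok value was not tested. Bax (chr7:45461695-45468205), the other main effector, had 4 and 2 control counts and 0 in both spermidine libraries, too few on its 54 own bases for any statement.

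The order of Bok and Bak1 differed in 1 library. The ratio of Bok to Bak1 counts per kb of own bases was 0.00138 and 0.00573 in the controls, 0.35 in spermidine replicate 1 and 1.24 in spermidine replicate 2. Bak1 was thus above Bok in both controls and in spermidine replicate 1, and below it in replicate 2.

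Among BH3-only genes, Bcl2l11 (chr2:128126038-128162547), which encodes BIM, had 6 and 7 control counts against 51 and 17, or 0.869 and 1.01 CPM against 58.3 and 12.1. Both spermidine libraries were higher than both controls, and here replicate 1 was the higher one, unlike for Bok and Bcl2l10. The value rose by 5.10 on the log2 scale (SE 1.06, adjusted p = 0.00782, edgeR), all of it on the 4043 bases outside annotated exons described above. The receptor level of spermidine replicate 1 comes to 12.9 counts on those bases, below the 51 seen. With the background of each library subtracted the rise was 5.24 (adjusted p = 0.0116, edgeR). That fit was filtered and scaled anew, and its median over all tested genes was -0.008 against 0.233. The values of 5.24 and 5.10 therefore also differ in scaling. Without spermidine replicate 1 the rise was 3.65 and not called (0.0753), and without control replicate 1 the call was lost as well (0.087).

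Bbc3 (chr7:16308320-16318334), which encodes the p53 target PUMA, had 18 and 19 control counts against 3 and 1. In CPM that was 2.61 and 2.75 against 3.43 and 0.712, so the groups overlapped, and the gene was not called (log2 fold change -0.58 ± 1.02 SE, adjusted p = 0.705, edgeR). The 3 counts in spermidine replicate 1 are no more than the receptor level there, 3.27 counts. Rows without a symbol that share exon bases with Bbc3 on the same strand were not summed into it. Of these, XM_006539581 had 9 and 13 control counts against 22 and 0, and XM_006539577 had 9 and 11 against 2 and 0. The Bbc3 values therefore do not cover the whole locus. Bid (chr6:120893119-120917141), whose product links death receptors to mitochondria, had 22 and 4 control counts and 0 in both spermidine libraries. The 95% interval of the ratio of spermidine to control counts, from counting alone, was 0 to 0.924. The controls lay far apart at 3.19 and 0.579 CPM, and on the gene's 369 own bases 3 counts in the spermidine libraries would be 3.43 and 2.14 CPM, above control replicate 2. The gene had too few counts for a test over libraries.

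**Figure D3:**
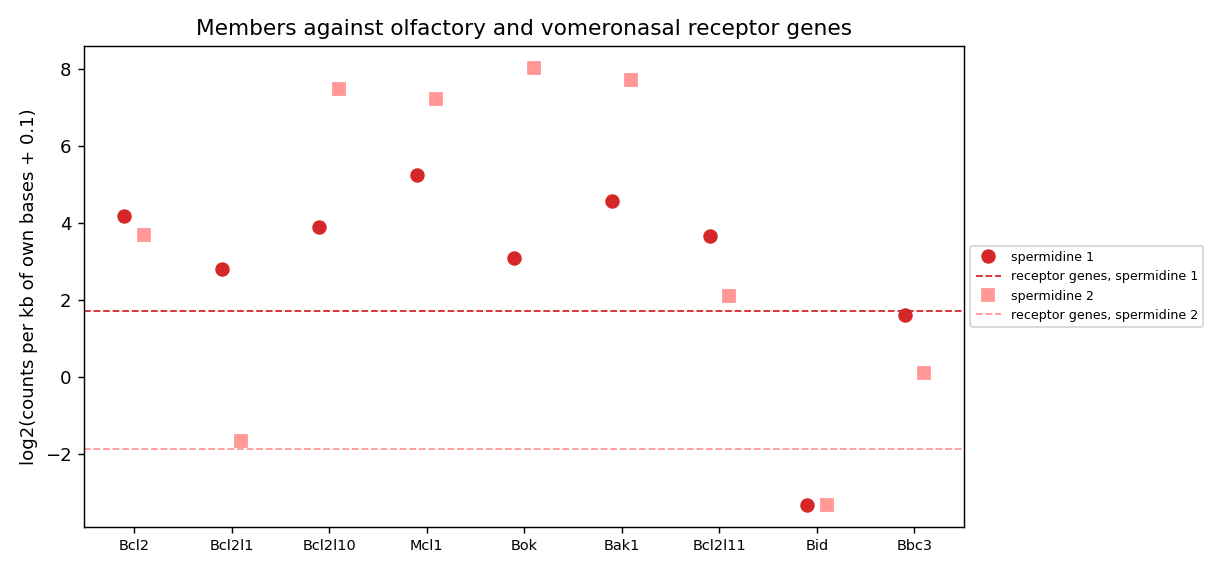
Counts per kb of own bases plus 0.1, on a log2 scale, for the 9 members with at least 300 own bases in each spermidine library, with the level on olfactory and vomeronasal receptor genes of the same library as a dashed line. Bbc3 lies below the line of spermidine replicate 1, Bid has no counts, and Bok and Bcl2l11 lie above the line in both libraries.

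Summed per kb of own bases, the family had a different make-up in each spermidine library. Bak1 held 44.4% and 47.1% of the family's signal in the controls, Mcl1 32.2% and 33.4%, and Bcl2 18.4% and 16.9%. In spermidine replicate 1 these were 19.08%, 30.0% and 14.5%, with Bcl2l10 at 11.7%, Bcl2l11 at 10.1% and Bok at 6.68%. In spermidine replicate 2, Bok held 32.0%, Bak1 25.9%, Bcl2l10 21.7%, Mcl1 18.1% and Bcl2 1.56%. Pro-survival genes together held 50.7% and 50.4% in the controls against 61.8% and 41.4% with spermidine, so the spermidine libraries lay on opposite sides of the controls. These shares compare rows with different kinds of own bases and are given as a description.

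**Figure D4:**
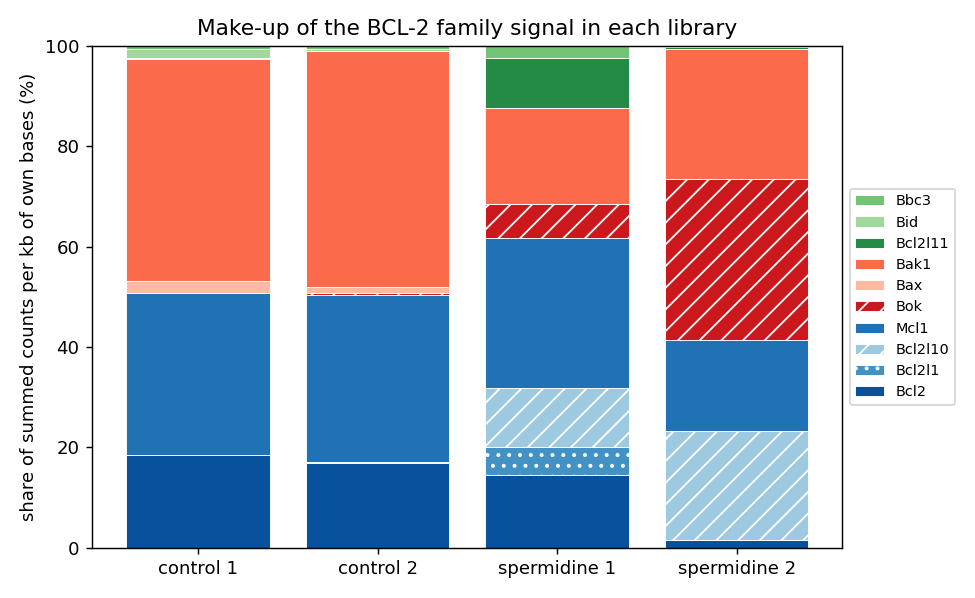
Share of each member in the family's summed counts per kb of own bases, in each of the 4 libraries (blue, pro-survival; red, effectors; green, BH3-only). The controls are alike, and in spermidine replicate 2 Bok holds 32.0% and Bcl2l10 21.7%, where the controls hold at most 0.27% and none.

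The genes closest to each member in log2 CPM over the 4 libraries, among 5855 candidates, are given as a description over 4 libraries only. Nearest to Bcl2 were Ier3, Plcg2 and Niban1, with Ier3 at 3189 and 2928 control counts against 94 and 84. Nearest to Bcl2l10 were Oas1d, Fbxw24 and Hoxd9, and nearest to Bok were Csrp2, Ednra and Cavin3. For Mcl1 they were Eif6, Psmc5 and Rab1a, and for Bak1 they were Dctpp1, Mrpl3 and Cks1b. Cers6, Nat8l and Cybrd1 were nearest to Bcl2l11, with Cers6 at 8 and 5 control counts against 55 and 17.

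The promoters of the called members differed in base composition. The table of RefSeq promoters (GRCm38.p6) held 14 windows for 9 members, and Bcl2l10 had no entry. The 250 bases before the start are shown for Bcl2, Bok and Bcl2l11, because these are the called members with an entry, at chr1:106714291-106714540 (minus strand), chr1:93685325-93685574 and chr2:128125788-128126037 (plus strand). Capitals mark GC boxes (GGGCGG on either strand) and CCAAT boxes (CCAAT on either strand), and overlapping matches were each counted.
Bcl2: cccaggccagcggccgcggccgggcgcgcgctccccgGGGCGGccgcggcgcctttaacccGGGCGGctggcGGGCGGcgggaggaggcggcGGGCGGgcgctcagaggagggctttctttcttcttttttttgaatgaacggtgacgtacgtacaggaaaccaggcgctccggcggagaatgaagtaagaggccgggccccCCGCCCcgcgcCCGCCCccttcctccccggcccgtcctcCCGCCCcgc
Bok: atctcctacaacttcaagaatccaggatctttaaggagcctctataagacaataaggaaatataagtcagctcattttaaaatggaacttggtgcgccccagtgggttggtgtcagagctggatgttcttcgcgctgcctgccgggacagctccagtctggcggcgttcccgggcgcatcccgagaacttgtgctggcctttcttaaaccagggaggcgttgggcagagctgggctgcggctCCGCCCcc
Bcl2l11: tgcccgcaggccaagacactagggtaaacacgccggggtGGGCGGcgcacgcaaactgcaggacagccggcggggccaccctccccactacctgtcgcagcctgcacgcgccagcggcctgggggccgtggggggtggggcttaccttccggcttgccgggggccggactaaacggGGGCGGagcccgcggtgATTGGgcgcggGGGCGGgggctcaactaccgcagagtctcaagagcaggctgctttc
The Bcl2 window was 74.8% G and C with 7 GC boxes, the Bcl2l11 window shown 72.0% with 3 GC boxes and 1 CCAAT box, and the Bok window 55.2% with 1 GC box, against a median of 52.4% over 32851 windows. Of all windows, 32.7% held a GC box and 33.8% a CCAAT box. Bcl2l11 has another window, at chr2:128127325-128127624, that was 73.2% G and C with 2 GC boxes and 2 CCAAT boxes. Of the FOXO core TGTTTAC (either strand), found in 3.2% of all windows, the first Bcl2l11 window held 1 match and the other none. The windows of Bcl2 and Bok held none either, nor did these 4 windows hold a TATA box (TATAAA) or an E-box (CANNTG). A match is a description and not a binding site.

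Around the family, 95 related genes in 7 lists were examined, of which 48 were tested, 6 were higher and 2 lower. Of the 6, Bcl2a1a and Casp12 were tested only on the strength of their spermidine counts, so they could only differ upwards. These lists too were made with earlier results of these data known. In the table as a whole, 24.8% of tested genes were higher and 3.99% lower.

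Of 7 tested genes among 17 other BCL-2 family members, 1 was higher and none lower by edgeR (median log2 fold change 1.30). That gene, the survival gene Bcl2a1a, had 0 and 1 control counts against 20 and 5. Over the groups this is a ratio of 151.5, with a 95% interval from counting of 24.8 to 6220. Bcl2a1a has near-identical copies, Bcl2a1b and Bcl2a1d, so its counts are uncertain. Bcl2a1b had 0 and 17 control counts against 18 and 3 and was not called (2.99 ± 1.39 SE, adjusted p = 0.146, edgeR). Bcl2a1d, not tested, had 0 and 2 against 6 and 0. The ratio of Bcl2a1a and its interval thus depend on how reads were divided among the copies. The p53 target Pmaip1, which encodes NOXA, had 484 and 349 control counts against 31 and 38 and was not called (-0.96 ± 0.61 SE, adjusted p = 0.269, edgeR). Nor was Bnip3, a mitophagy receptor, with 1630 and 1331 against 89 and 139 (-1.10 ± 0.51, adjusted p = 0.147, edgeR).

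Downstream of the pore, 2 of 9 tested genes of the apoptosome, caspases and their inhibitors were higher and 1 was lower (median 0.22). Cycs, which encodes the cytochrome c released through the pore, had 4725 and 4263 control counts against 143 and 145. It fell by 2.30 on the log2 scale (SE 0.55, adjusted p = 0.0131, edgeR). Casp6, an executioner caspase, had 24 and 43 control counts against 21 and 111 and rose by 3.45 (SE 0.81, adjusted p = 0.0124). Casp12, a caspase of the endoplasmic reticulum, had 1 and 2 control counts against 4 and 10. This is a ratio of 28.3 over the groups, with an interval of 7.89 to 153.5. None of the 5 tested genes of outer membrane partners and mitochondrial dynamics was called by edgeR (median -1.38).

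Upstream, 1 of 9 tested p53 genes was lower and none higher (median -0.40). That gene, the cyclin G gene Ccng1, had 2664 and 2042 control counts against 76 and 164 and fell by 1.74 (SE 0.53, adjusted p = 0.0374, edgeR). Among 9 tested other regulators of BH3-only genes, Foxo1, a transcription factor also abundant in granulosa cells, was called higher. It had 426 and 726 control counts against 228 and 1954 and rose by 3.31 (SE 0.82, adjusted p = 0.0156). Of 7 tested death receptor genes 2 were higher, the TNF receptor Tnfrsf1a by 3.51 (SE 0.77, adjusted p = 0.00932) and the TRAIL receptor Tnfrsf10b by 2.47 (SE 0.75, adjusted p = 0.037). Tnfrsf1a had 48 and 148 control counts against 78 and 326, and Tnfrsf10b 26 and 57 against 30 and 46. Of these 7 genes, only 1 was called higher with library totals and with a replicate block. The same number was called with the receptor background subtracted and by edgeR's legacy test.

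**Figure D5:**
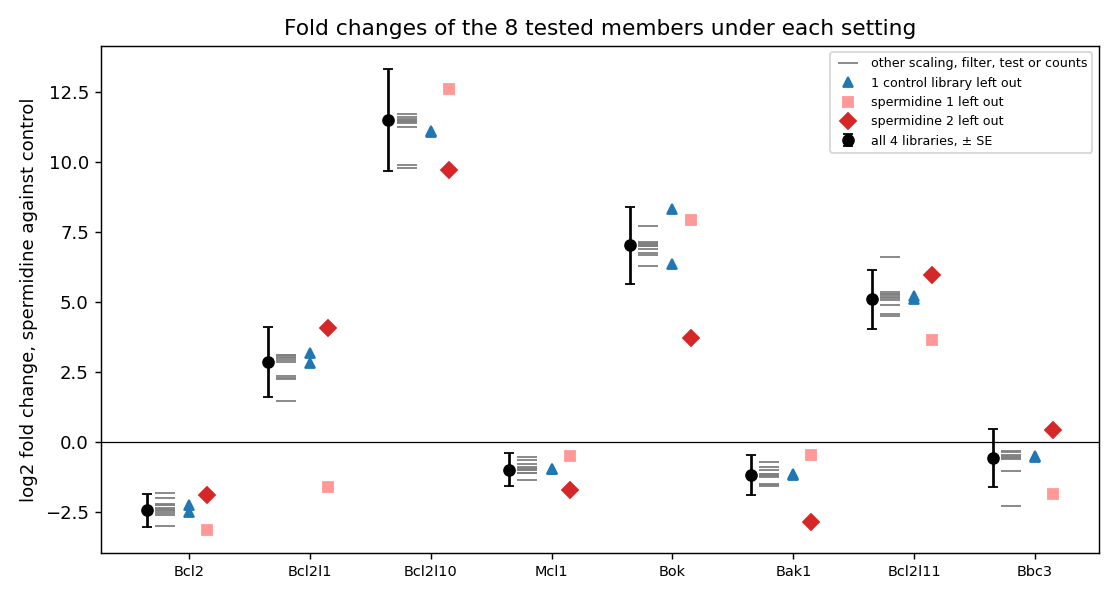
Log2 fold change of the 8 tested members with all 4 libraries (black, with its SE), under other scalings, filters, tests and counts (grey), and with 1 library left out. Bcl2, Bcl2l10, Bok and Bcl2l11 keep their sign throughout, while Bcl2l1 and Bbc3 change sign when a spermidine library is left out.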

How the data were processed

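Poly(A) RNA of 2 control and 2 spermidine samples was sequenced as paired ends, per the labels' protocols. The authors deposited raw counts for each of 106519 RefSeq transcripts. HISAT2, DESeq2 and the build mm9 are named in the submitters' processing notes without roles, and no source used here names the counting program. The deposited exon positions are given here as GRCm38: of 137 exon boundaries of the members, 85 coincide with GENCODE M21 (GRCm38). Of the rows, 80.8% matched a symbol in a RefSeq gene table and were summed per gene. At most 0.0014% of a library's counts lay on rows that share every base with another row.

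Genes were kept by filterByExpr (count minimum 10, total minimum 15), scaled by TMM (factors 0.962, 0.973, 1.30 and 0.824) and tested with edgeR 4.0.16 in R 4.3.3 (glmQLFit with legacy=FALSE, and glmQLFTest), with group as the only term, 2 residual degrees of freedom and calls at an adjusted p under 0.05 (Benjamini-Hochberg, every tested gene). CPM values are the counts over the scaled library size, and log2 CPM used a prior count of 2. Alternatives used other scalings and filters, DESeq2 1.42.0, limma 3.58.1 (voom), a replicate block, transcript rows, thinned controls (1253272 counts each), and each library left out. Subtracting the receptor background and edgeR's legacy test were added after the data were seen. The procedure was tested on simulated counts, and the outcome is not given here. Ratio intervals (95%, exact) cover counting error only, and floors of 3 counts cover only that of the counts they replace.

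The members and lists were chosen with earlier results of these data known. All 10 members are described. From each related list every called gene is named when there are at most 6. Pmaip1, Bnip3 and the copies of Bcl2a1a were named beside them after their values were seen. The result of a related list is not reported here. For each tested member the 3 nearest protein-coding genes by Euclidean distance in log2 CPM were taken, from those averaging 1 or more; those of Bcl2l1 and Bbc3 are not printed.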

Additional observations from a re-analysis of the deposited data

Results flagged for a closer look

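A pair of deposited rows without a symbol, used in no comparison, lie inside member genes and had a higher CPM in spermidine replicate 1 than in both controls. The row XM_006539581, which shares exon bases with Bbc3 on the same strand, had 9 and 13 control counts against 22 and 0, or 1.30 and 1.88 CPM against 25.2 and 0. Its 411 own bases held no count in spermidine replicate 2. The row XM_006500524, on the strand opposite Bcl2l1, had 6 and 3 control counts against 10 and 0, on 1405 own bases. Counts on receptor genes were 3.20 per kb in spermidine replicate 1, and their part in these values was not tested.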

How the results depend on the processing

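Of the 10 members, 3 were higher and 1 lower in all other scalings, by DESeq2, on transcript rows, without AY036118, with the receptor background subtracted and by edgeR's legacy test; limma-voom gave 2 and 1. With no low-count filter edgeR called 0 members, 0 related genes and 0 genes in all, with 4, 16 and 4255 at an unadjusted p under 0.05. Asking each library for 1 CPM or more, 3 members could be tested and 0 were higher and 0 lower (1 at an unadjusted p under 0.05, Bcl2), against 3 related genes higher and 0 lower, and 230 and 45 genes in all. With thinned controls, 955 genes were higher and 111 lower, 0 members were lower and 1 related gene was lower. At an adjusted p under 0.01, 1238 genes were higher and 44 lower, 0 members lower, and 2 related genes higher and 0 lower. Library totals gave 4 related genes lower, and the subtracted background 1254 genes higher.

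Over the fits without 1 library, which kept the genes of the full fit and assume that a lone library varies like the other group, genes called higher numbered 0 to 2517 and lower 0 to 1208. Members called higher numbered 0 to 4 and lower 0 to 3, and related genes 0 to 10 and 0 to 7. Without control replicate 1 no gene was called (1926 at an unadjusted p under 0.05, 4 of them members). Without spermidine replicate 1, 1 member was higher and 1 lower. Bcl2l1 ranged from -1.62 to 4.08 and Bbc3 from -1.88 to 0.42. Over all tested genes the log2 ratio between the spermidine libraries had an SD of 1.87, against 0.804 between the controls.

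The labels give both groups the replicate numbers 1 and 2 without a stated pairing, and the deviations of same-numbered libraries correlated at -0.0299, so the numbers were not taken as pairs. A fit with the replicate block called 3 members higher and 1 lower, 5 related genes higher and 1 lower, and 1681 and 94 genes in all. Spermidine libraries with 0 to 3 counts limit what can be said of Bax, Bid and Bbc3, the first 2 also through their few own bases.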
